A study of Homo sapiens with 12 samples.

Results

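DUSP4, DUSP5, DUSP6, SPRY2, SPRY4, SPRED1, SPRED2, ETV4, ETV5 and PHLDA1 are genes that rise when the kinase ERK is active, and most of them encode proteins that act back on the pathway. These 10 genes were listed by symbol for that role, with no threshold on the values measured here but with earlier results of these data known, and were found among the 54127 gene identifiers of the count data. Their expression was compared by RNAseq in C4-2 prostate cancer (PrCa) cells given the PBK inhibitor HI-TOPK-032 (PBKi, 1 µM) for 6 h and in cells given the vehicle DMSO, with 6 samples in each group. C4-2 is an established line of human prostate cancer epithelium, derived from LNCaP. The study's methods give RPMI medium with 10% serum, a source of growth factors and hormones, for the line in general. They name no separate medium for the RNAseq. PBK, also called TOPK, is a serine/threonine kinase related to the MAP kinase kinases. The comparison therefore asks how the transcripts that report on ERK, a MAP kinase, stood after the inhibitor, at 1 dose and 1 time in 1 cell line. No sample here had PBK removed by other means, so an action of the compound on PBK and its actions on other proteins cannot be told apart in these data. The study also sequenced C4-2 cells after PBK knockdown by siRNA, which are not among these samples. It reported a significant overlap between the genes lowered by the knockdown and by PBKi.

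The samples held between 9663203 and 28029908 reads counted on genes, with 3 sequencing lanes for DMSO replicate 5 and 4 lanes for each other sample. PBKi replicates 3 and 6 had the largest shares of reads outside genes (9.30% and 8.83%, against 5.74% to 6.96% in the other samples). All 10 listed markers of luminal prostate epithelium were expressed. They summed to 5265 to 6328 CPM (reads of a gene scaled to a common library total) in DMSO and 2956 to 3837 CPM in PBKi. At an adjusted p under 0.05, 5 of the 10 fell and 1 rose. The share called was 60%, against 41.7% of all genes tested, of which 21.5% fell and 20.1% rose. The markers of other cell types were low. The 3 basal genes summed to at most 1.73 CPM, 2 endothelial genes to at most 7.25 CPM and 5 immune genes to at most 0.738 CPM. The endothelial sum was mostly VWF (mean 5.26 CPM in DMSO and 3.61 CPM in PBKi). The 6 fibroblast genes summed to between 19.3 and 26.1 CPM. Most of that was COL1A1 (mean 18.7 CPM in DMSO and 19.8 CPM in PBKi), and 4 of the 6 had means under 1 CPM in each group. The part of the marker shifts in the results was not tested. PBK itself, the target of the inhibitor, went from 219 ± 37.2 to 165 ± 15.1 CPM (SD, n = 6 each; log2 fold change -0.42, adjusted p = 0.00194, edgeR quasi-likelihood test), and its groups overlapped.

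ERK is the last kinase of the Ras, RAF and MEK cascade below growth factor receptors. Once active, it switches on genes whose products damp the signal: the DUSP phosphatases take the activating phosphates off MAP kinases, and the Sprouty (SPRY) and SPRED proteins restrain the steps between the receptor and RAF. ETV4 and ETV5 are ETS transcription factors of the PEA3 family, which the repressor capicua (CIC) keeps low until ERK inactivates it. PHLDA1 encodes a pleckstrin homology-like protein and often stands in transcript lists used to read ERK output. In prostate cells the pathway is best known for growth factor signalling beside the androgen receptor.

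The 10 genes did not move together. Of the 8 with enough reads to be tested, 2 rose after PBKi (ETV5 and DUSP5), 3 fell (PHLDA1, DUSP4 and SPRED2) and 3 were not called (SPRED1, SPRY2 and DUSP6). SPRY4 and ETV4 had too few reads for the test. Among all 14505 genes tested, 20.1% rose and 21.5% fell at the same threshold (edgeR quasi-likelihood test, Benjamini-Hochberg adjusted p under 0.05), and 41.7% changed in either direction. Of the 8 genes, 5 changed (62.5%). With only 8 genes, no difference from the share in the transcriptome was tested. The median log2 fold change of the 8 genes was -0.17, against -0.01 over all genes tested. ETV5 passed the filter on low counts only through its PBKi samples, which in part fixes its direction. ETV5 rose, and PHLDA1 and DUSP4 fell, by more than 1 on the log2 scale. Of all genes tested, 3.26% were called higher and 0.586% lower with a change of that size. In whole cells, fewer cells expressing a gene and less RNA in each cell cannot be told apart.

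**Figure D1:**
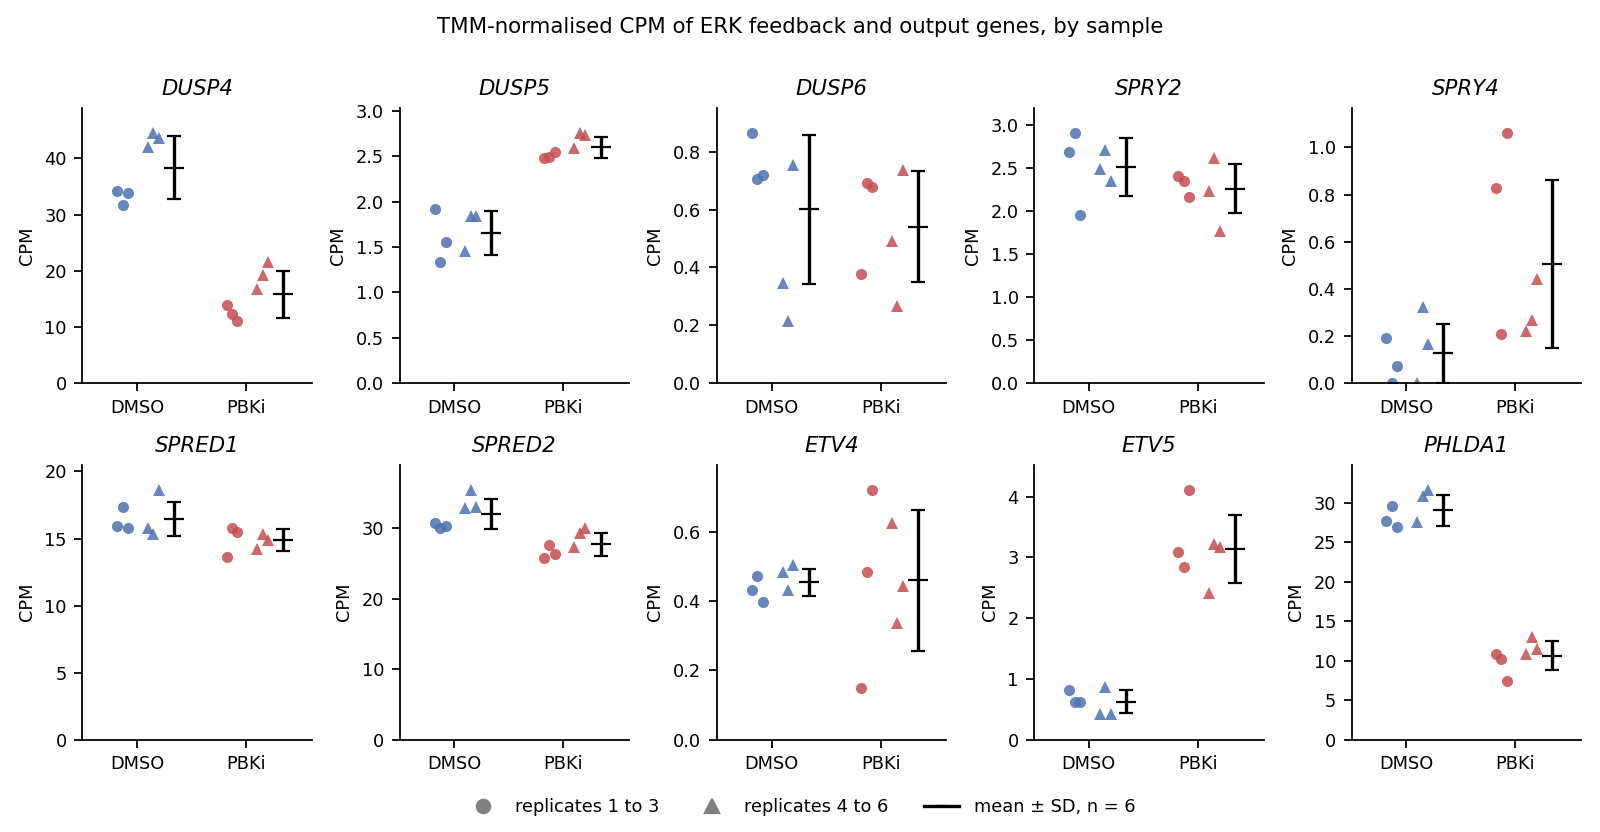
Level of each of the 10 genes in every sample, in CPM (vertical axis, starting at 0), for DMSO (blue) and PBKi (red). Circles are replicates 1 to 3, triangles replicates 4 to 6, and the black bars give the mean ± SD of 6 samples, cut at 0 for SPRY4. The groups lie apart for DUSP4 and PHLDA1 (PBKi below) and for DUSP5 and ETV5 (PBKi above), and overlap for the other 6 genes.

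DUSP4 encodes a nuclear phosphatase that acts on ERK and other MAP kinases. Its level in DMSO ran from 31.8 CPM over a median of 38.1 to 44.5, and in PBKi from 11.1 over a median of 15.3 to 21.5 CPM. Every PBKi sample therefore lay below every DMSO sample, as it did for 9.68% of all genes tested. The mean went from 38.3 ± 5.63 to 15.8 ± 4.11 CPM (SD, n = 6 each). On the log2 scale this was -1.28 ± 0.14 (SE, adjusted p = 1.38e-06 in the edgeR fit over all genes). The exact two-sided permutation test of this gene gave p = 0.00216, the smallest it can give here. DUSP4 (chr8:29190581-29208201 in GRCh37, minus strand) was counted with 177 to 941 reads a sample, so that counting error was small beside the difference.

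DUSP4 also differed between the first and the last replicates of each group. Replicates 1 to 3 had 33.3 ± 1.34 CPM and replicates 4 to 6 had 43.4 ± 1.28 CPM in DMSO (SD, n = 3 each). After PBKi, the corresponding levels were 12.4 ± 1.43 and 19.2 ± 2.39 CPM. The sets did not overlap in either group, and DUSP4 fell within each of them. With the first 3 replicates of each group alone, edgeR put the log2 fold change at -1.44 (adjusted p = 1.19e-08), and with the last 3 at -1.18 (adjusted p = 9.23e-06). The difference between these effects was not called (adjusted p = 0.927), and the labels do not say what, if anything, divides the sets.

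DUSP5, a nuclear phosphatase specific for ERK, was expressed at a much lower level and went the other way. Its DMSO samples ran from 1.33 CPM (median 1.69) to 1.92 CPM and its PBKi samples from 2.48 CPM (median 2.56) to 2.75 CPM, without overlap. PBKi samples lay above all DMSO samples in this way for 10.5% of all genes tested. The mean rose from 1.66 ± 0.243 to 2.60 ± 0.119 CPM (SD, n = 6 each). On the log2 scale this was 0.65 ± 0.13 (SE, adjusted p = 0.000727, edgeR; exact two-sided permutation p = 0.00216). These levels rest on 17 to 43 reads a sample in DMSO and 33 to 60 in PBKi. In replicates 4 to 6 alone the log2 fold change was 0.66 and the adjusted p was 0.0541 by the same test. The gene lies at chr10:112257665-112271291 (GRCh37, plus strand).

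DUSP6, the cytoplasmic ERK phosphatase that is widely used to read ERK activity, was close to the limit of detection. It had 2 to 20 reads in the DMSO samples and 4 to 16 in the PBKi samples. Its level ran from 0.216 CPM (median 0.714) to 0.864 CPM in DMSO and from 0.268 CPM (median 0.584) to 0.739 CPM after PBKi. The groups overlapped almost completely. The log2 fold change was -0.23, with a 95% confidence interval from -0.85 to 0.40 and an adjusted p of 0.566 in the edgeR fit. At this depth the reads do not tell apart the changes within that interval. From the summed reads alone, 63 in DMSO and 56 in PBKi, the ratio of PBKi to DMSO was 0.843 (95% exact interval 0.577 to 1.23, which covers counting error only).

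Other phosphatases of the family gave a similarly divided picture. Of 8 further MAP kinase phosphatases listed for their role, 7 were matched and tested; 3 rose, 1 fell and 3 were not called, with a median log2 fold change of 0.14. The share called was 57.1%, against 41.7% of all genes tested. DUSP10, a phosphatase that prefers p38 and JNK, rose from 5.05 ± 0.642 to 7.51 ± 0.793 CPM (log2 fold change 0.59, adjusted p = 0.000258, edgeR). DUSP2, a nuclear phosphatase induced in activated lymphocytes, rose by 0.55 on the log2 scale (adjusted p = 1.53e-05), and DUSP16, a phosphatase of JNK, by 0.21 (adjusted p = 0.0273). DUSP16 lost its call with 1 sample left out in 4 of 12 fits (DMSO replicate 1, 2 or 3 or PBKi replicate 2), with an adjusted p of up to 0.0689. DUSP9, an ERK phosphatase close in sequence to DUSP6, fell by 0.34 (adjusted p = 0.0141). DUSP1, the early stress-induced phosphatase, was at 14.0 ± 3.32 CPM in DMSO and 14.2 ± 0.804 CPM in PBKi (SD, n = 6 each; log2 fold change 0.02, 95% confidence interval -0.24 to 0.27).

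Among the inhibitors that act at Ras, SPRED2 fell slightly. SPRED1 and SPRED2 bind neurofibromin (NF1) and bring it to the membrane, where it turns Ras off. SPRED2 ranged from 30.0 CPM (median 31.8) to 35.5 CPM in DMSO and from 25.8 CPM (median 27.5) to 30.1 CPM in PBKi. The groups met only at the edge, where the highest PBKi sample (replicate 6, 30.1 CPM) exceeded the lowest DMSO sample (replicate 2, 30.0 CPM). The mean went from 32.1 ± 2.12 to 27.8 ± 1.64 CPM (SD, n = 6 each). On the log2 scale this was -0.20 ± 0.06 (SE, adjusted p = 0.0116, edgeR; exact two-sided permutation p = 0.00433). The fall is near the median absolute log2 fold change of all genes tested, 0.19. In replicates 4 to 6 alone the value was -0.22 with an adjusted p of 0.0952.

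SPRED1, its close relative, was not called. Its samples ran from 15.4 CPM (median 15.9) to 18.6 CPM in DMSO and from 13.6 CPM (median 15.1) to 15.8 CPM in PBKi, and the groups overlapped. The log2 fold change was -0.14 ± 0.07 (SE), with a 95% confidence interval from -0.29 to -0.00078, and the adjusted p was 0.0987 in the edgeR fit. The exact two-sided permutation p for SPRED1 alone, without adjustment over genes, was 0.0108.

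SPRY2, the Sprouty member with the most reads of the pair examined, stood at 1.95 CPM (median 2.59) to 2.90 CPM in DMSO and 1.77 CPM (median 2.29) to 2.62 CPM in PBKi. These ranges overlapped over most of their length. The log2 fold change was -0.13, with a 95% confidence interval from -0.43 to 0.16 and an adjusted p of 0.508 (edgeR). SPRY1, a further Sprouty gene outside the 10, fell from 12.9 ± 1.11 to 9.89 ± 1.31 CPM (SD, n = 6 each; log2 fold change -0.40, adjusted p = 0.00258), without overlap between groups.

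SPRY4 had almost no reads in DMSO and slightly more after PBKi. DMSO replicates 1 to 6 had 4, 0, 2, 0, 3 and 2 reads, and PBKi replicates 1 to 6 had 11, 3, 25, 5, 4 and 6 reads. A count of 0 allows up to 3 reads, or 0.235 CPM in DMSO replicate 2 and 0.208 CPM in DMSO replicate 4. In CPM the groups overlapped, since PBKi replicates 2, 4 and 5 (0.207 to 0.268 CPM) lay below DMSO replicate 5 (0.325 CPM). The summed reads were 11 against 54, a ratio of PBKi to DMSO of 4.65 (95% exact interval 2.41 to 9.87, counting error only), and without PBKi replicate 3, which held 25 of the 54 reads, the ratio was 3.25 (1.58 to 7.21). The exact two-sided permutation p was 0.0195 over all samples and 0.0411 without that replicate. With no filter on low counts the edgeR fit gave a log2 fold change of 2.12 ± 0.50 (SE, adjusted p = 0.00044).

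ETV5 had the largest rise of the 8 genes tested. Its level in DMSO was low, from 0.415 CPM (median 0.620) to 0.866 CPM, and in PBKi it ran from 2.41 CPM (median 3.13) to 4.11 CPM. The lowest PBKi sample was thus well above the highest DMSO sample. The mean rose 5.01-fold, from 0.626 ± 0.190 to 3.14 ± 0.562 CPM (SD, n = 6 each), which was 2.31 ± 0.20 on the log2 scale (SE, adjusted p = 7.48e-08, edgeR; exact two-sided permutation p = 0.00216). The DMSO values rest on 5 to 17 reads a sample and the PBKi values on 41 to 97, and the gene entered the test through its PBKi samples. Replicates 1 to 3 alone gave 2.32 on the log2 scale, and the other 3 gave 2.41. ETV5 (chr3:185764103-185828107 in GRCh37, minus strand) overlaps DGKG on the same strand, which had 2 to 16 reads a sample, and an antisense transcript with no reads.

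ETV4, the paralogue of ETV5, was not tested in the fit and stayed at a few reads a sample. DMSO replicates 1 to 6 had 9, 6, 11, 7, 4 and 6 reads, and the PBKi samples had 2, 7, 17, 14, 5 and 6. The mean was 0.453 ± 0.0397 CPM in DMSO and 0.460 ± 0.204 CPM in PBKi (SD, n = 6 each; exact two-sided permutation p = 0.838). The ratio of summed reads was 1.12, with a 95% exact interval from 0.735 to 1.73. The gene shares part of its locus with DHX8 on the opposite strand, which had 850 to 2009 reads a sample, and the strand setting of the counting is not given in the sources used here, so these few reads could in part be those of DHX8.

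The repressor complex that acts on ETV4 and ETV5 was described beside them. CIC stood at 29.9 ± 5.86 CPM in DMSO and 30.0 ± 2.12 CPM in PBKi (SD, n = 6 each; log2 fold change 0.02, 95% confidence interval -0.18 to 0.22). ATXN1, a partner that stabilises CIC, rose from 30.5 ± 7.08 to 72.7 ± 15.1 CPM (log2 fold change 1.27 ± 0.15 SE, adjusted p = 2.43e-06, edgeR), and its groups did not overlap. Its relative ATXN1L rose by 0.18 on the log2 scale (adjusted p = 0.0222), a call that was lost without DMSO replicate 1 or 3 (adjusted p up to 0.0614). ERF, an ETS repressor that ERK exports from the nucleus, was at 23.8 ± 4.30 CPM in DMSO and 21.6 ± 1.97 CPM in PBKi (log2 fold change -0.13, adjusted p = 0.311). ETV1, the third PEA3 factor, had too few reads to be tested, as had SPRY3 and SPRED3. Of these 8 related genes, 5 were tested, of which 2 rose and 1 fell (60% called, against 41.7% of all genes tested).

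PHLDA1 had the largest fall of the 8 genes tested. It ranged from 26.9 CPM (median 28.7) to 31.6 CPM in DMSO and from 7.42 CPM (median 10.8) to 13.0 CPM in PBKi. The groups lay apart, and PBKi replicate 3 was the lowest of all samples. The mean went from 29.0 ± 1.95 to 10.6 ± 1.83 CPM (SD, n = 6 each), which put DMSO 2.73-fold above PBKi. The log2 fold change was -1.46 ± 0.10 (SE, adjusted p = 4.40e-09, edgeR; exact two-sided permutation p = 0.00216), and the first 3 replicates alone gave -1.58, the last 3 -1.35. The study displayed PHLDA1 among genes picked for their change in these same samples, so its value is no independent evidence of the direction. The gene lies at chr12:76419227-76425556 (GRCh37, minus strand).

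**Figure D2:**
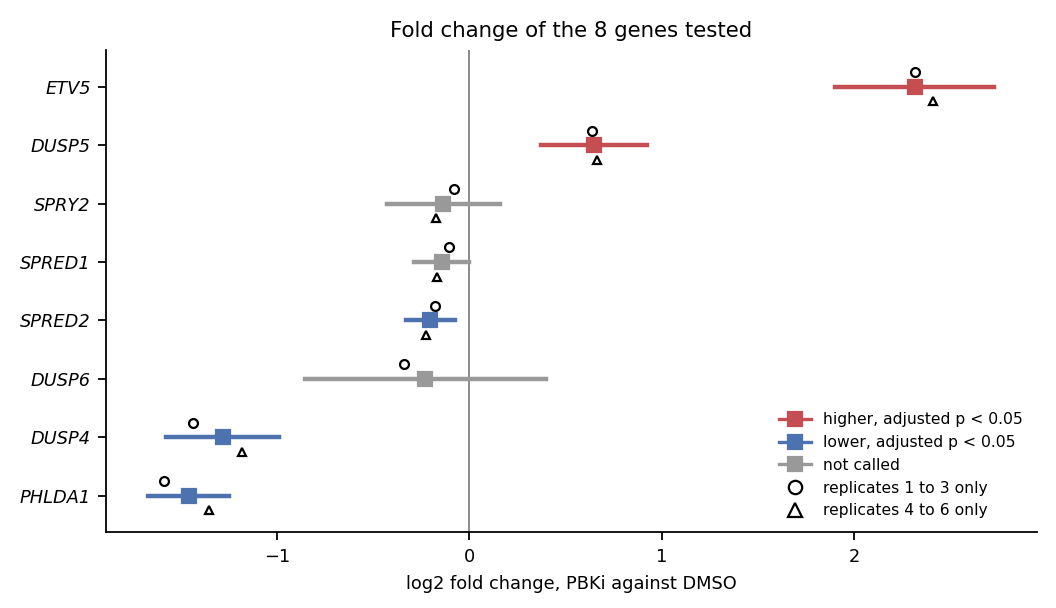
Log2 fold change of PBKi against DMSO (horizontal axis) for the 8 genes with enough reads, ordered by size. Squares and bars give the edgeR estimate with its 95% confidence interval, red for genes called higher, blue for genes called lower and grey for genes not called, and open symbols give the estimates from replicates 1 to 3 (circles) and 4 to 6 (triangles, not available for DUSP6). PHLDA1 (-1.46) and DUSP4 (-1.28) lie far below 0, ETV5 (2.31) far above, and the estimates of both replicate sets lie on the same side of 0 for each gene that has both.

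Per length of their exons, the 10 genes spanned a wide range in DMSO. SPRED2 (5.83 ± 0.385 CPM per kb), DUSP4 (5.27 ± 0.774) and PHLDA1 (4.91 ± 0.329) were highest, and neighbours among these overlapped (SD, n = 6 each). SPRED1 followed at 2.13 ± 0.162 CPM per kb, apart from the genes above and below it. SPRY2 (0.782 ± 0.105) and DUSP5 (0.654 ± 0.0958) overlapped each other, as did DUSP6 (0.156 ± 0.0667) with ETV4 (0.129 ± 0.0113) and ETV4 with ETV5 (0.108 ± 0.0329). SPRY4 came last at 0.0192 ± 0.0193 CPM per kb. Taken over all 12 samples and set among the genes tested, SPRED2 stood at percentile 52.2, DUSP4 at 43.4 and PHLDA1 at 40.9, whereas DUSP6 stood at 3.06, ETV4 at 2.41 and SPRY4 at 0.2. DUSP6, ETV4 and SPRY4 were thus among the least expressed of the genes considered. After PBKi, ETV5 reached 0.544 ± 0.0974 CPM per kb, while DUSP4 and PHLDA1 came down to 2.17 ± 0.565 and 1.80 ± 0.310.

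The samples within a group also varied together for some of the genes. After each gene's log2 CPM was centred on its group means, DUSP4 and SPRED2 had a Pearson r of 0.823 over the 12 samples (Spearman rho 0.762), and DUSP4 and PHLDA1 one of 0.752 (Spearman rho 0.811). SPRED2 and PHLDA1 had an r of 0.53. The lowest Pearson r was that of DUSP6 with SPRED2 (-0.482, Spearman rho -0.126), and the lowest rho that of DUSP6 with SPRY2 (-0.49). These are descriptions, since values in 1 sample share its library and scaling. DUSP4, SPRED2 and PHLDA1 also had higher means in replicates 4 to 6 than in 1 to 3, in both groups. ETV5, the gene with the largest change, had an r between -0.304 and 0.298 with the other 7. The pattern of DUSP6 over the 12 samples was most like that of NAPG (r = 0.848), STX7 (0.844) and TRDMT1 (0.822) among 10036 genes of at least 3 in mean log2 CPM, and with the few reads of DUSP6 such likeness is no finding.

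**Figure D3:**
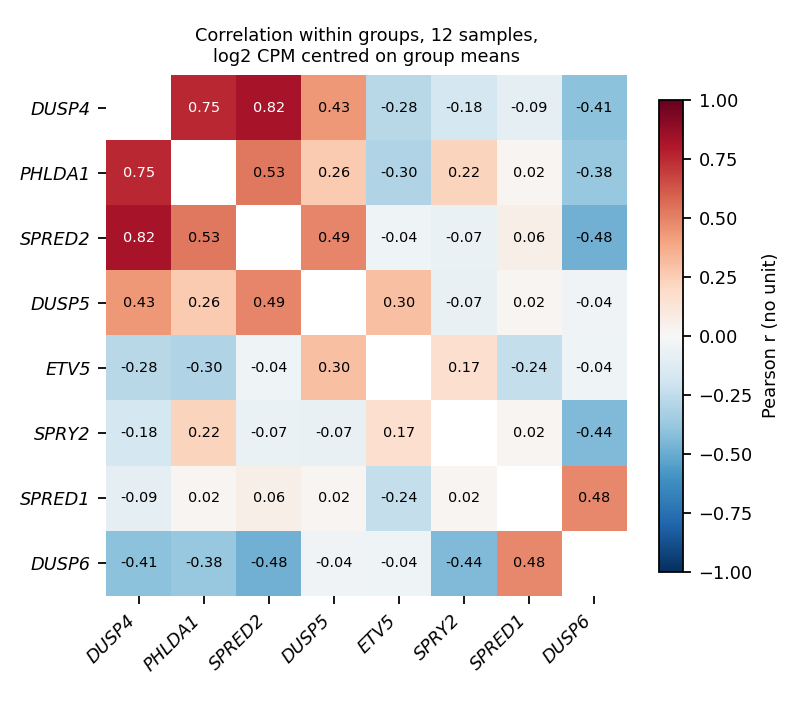
Pearson correlation (colour, no unit) between the 8 tested genes over 12 samples, after the mean of each group was taken off the log2 CPM. DUSP4, PHLDA1 and SPRED2 form the block of highest values (0.53 to 0.823), and DUSP6 has its lowest value with SPRED2 (-0.482).

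Promoter sequence was available for 6 of the 10 genes in RefSeq (GRCh38.p14), with 9 windows from 250 bases before to 50 after a start. The 250 bases before the start are shown for PHLDA1, which fell most, for the first start of SPRED2, which fell slightly, and for DUSP6, which was not called, each 5′ to 3′ on the strand of the gene (the minus strand), with AGGAAG, the core letters of many ETS sites, or its reverse complement CTTCCT in capitals. The PHLDA1 stretch is chr12:76031777-76032026, that of SPRED2 chr2:65432600-65432849 and that of DUSP6 chr12:89352502-89352751.
PHLDA1: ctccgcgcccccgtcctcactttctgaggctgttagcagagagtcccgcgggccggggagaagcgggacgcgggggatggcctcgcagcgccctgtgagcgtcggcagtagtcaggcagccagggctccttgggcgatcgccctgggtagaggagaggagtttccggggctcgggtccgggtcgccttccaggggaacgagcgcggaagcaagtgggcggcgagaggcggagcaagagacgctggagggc
SPRED2: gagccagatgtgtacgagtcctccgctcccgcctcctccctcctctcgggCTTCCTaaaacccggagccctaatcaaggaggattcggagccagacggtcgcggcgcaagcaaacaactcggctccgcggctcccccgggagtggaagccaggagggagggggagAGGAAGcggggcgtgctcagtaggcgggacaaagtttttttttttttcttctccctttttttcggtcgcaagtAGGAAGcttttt
DUSP6: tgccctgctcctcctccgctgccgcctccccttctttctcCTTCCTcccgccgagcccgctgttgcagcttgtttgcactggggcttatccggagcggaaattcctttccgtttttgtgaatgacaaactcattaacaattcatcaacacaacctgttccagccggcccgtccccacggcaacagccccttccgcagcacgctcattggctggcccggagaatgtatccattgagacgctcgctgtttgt

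SPRED2 carried the letters AGGAAG on either strand 3 times in the stretch shown, at -200, -85 and -12 from the start, and DUSP6 carried them at -210, whereas PHLDA1 had no match. The second SPRED2 window had a match at -192. SPRED1 had 2 matches, at -83 and -17, and each of the 3 SPRY2 windows had 1, while SPRY4 had none. Of 35116 promoter windows of the same length, 33.6% hold AGGAAG. The longer ETS letters CCGGAAG (10.3% of all windows), the CIC letters TGAATGAA (1.65%) and TGAATGGA (1.03%), and the cyclic AMP response element TGACGTCA (1.85%), searched on both strands, had no match in the 9 windows. TGACTCA, the AP-1 letters (4.95% of all windows), matched once, across position -6 of the second SPRED2 start. A match describes letters only. No gene called higher was among the 6 with a window.

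Outside the 10 genes, a list of 22 other transcripts known to respond to ERK held 13 that were tested, of which 6 rose and 3 fell, with a median log2 fold change of 0.15. Most of the list is known to be raised by ERK, and BCL2L11, the gene of the death factor BIM, to be lowered (-0.08, adjusted p = 0.339, edgeR). The share called was 69.2%, against 41.7% of all genes tested, of which 20.1% rose and 21.5% fell. UPP1, a uridine salvage enzyme, rose from 1.80 ± 0.344 to 9.76 ± 2.75 CPM (SD, n = 6 each; log2 fold change 2.45, adjusted p = 2.00e-08, edgeR), without overlap. JUNB, an AP-1 factor, rose by 0.73 on the log2 scale (adjusted p = 4.51e-05), and HBEGF, a ligand of the EGF receptor, by 0.32 (adjusted p = 0.0152). MYC fell by 0.73 (adjusted p = 1.79e-08), EPHA2, an ephrin receptor, by 0.37 (adjusted p = 0.00242) and CCND1, which encodes cyclin D1, by 0.30 (adjusted p = 0.00362). The other 3 genes that rose, named after their values were seen, were TNC (2.70), EGR1 (0.99) and MCL1 (0.15 on the log2 scale). EGR1 had 3 to 16 reads in the DMSO samples and 8 to 31 in the PBKi samples (adjusted p = 0.0139, edgeR). Its groups overlapped, and neither group alone could have carried it past the filter on low counts. TNC, with 1 to 6 reads in the DMSO samples and 13 to 49 in the PBKi samples, passed the filter on low counts only through PBKi, which fixes its direction. FOS, also named after its values were seen, was not tested, and had 1 to 55 reads in the DMSO samples and 3 to 6 in the PBKi samples.

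**Figure D4:**
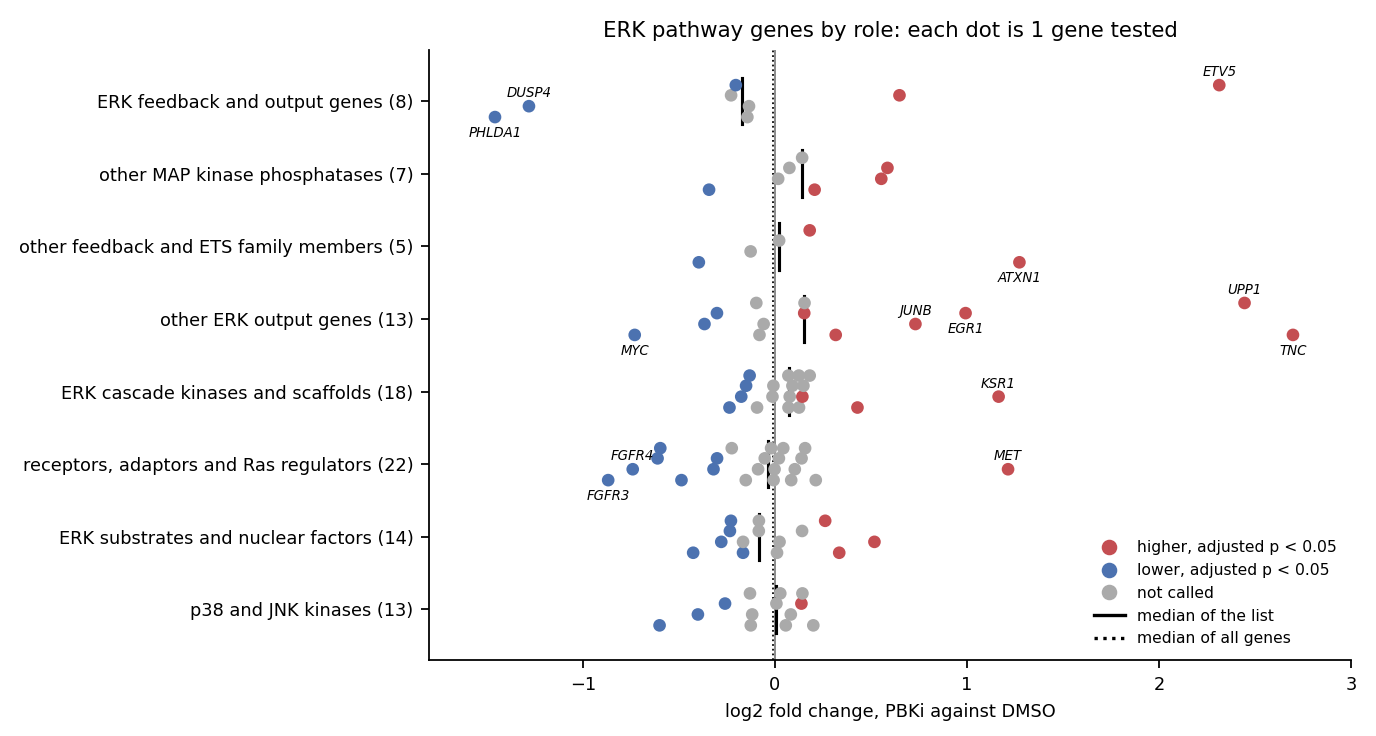
Log2 fold change of PBKi against DMSO (horizontal axis) for every gene tested of 8 lists of the ERK pathway and its neighbours, with the number tested in brackets. Red dots are genes called higher, blue dots genes called lower and grey dots genes not called, the vertical bars give each list's median and the dotted line the median of all genes (-0.01), and genes beyond 0.7 in size are named. The receptors have 7 blue dots and 1 red dot, while the cascade kinases lie close to 0, apart from KSR1 (1.16).

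The kinases that lead to ERK had small fold changes apart from KSR1. Of 18 cascade kinases and scaffolds, all tested, 3 rose and 4 fell, and their median log2 fold change was 0.07. The 38.9% called lies near the 41.7% of all genes tested. MRAS, a small GTPase that joins SHOC2 in freeing RAF from its block, rose by 0.43 (adjusted p = 0.0158, edgeR) and NRAS by 0.14 (adjusted p = 0.0273). The scaffold KSR1, named after its values were seen, rose by 1.16 from 1.02 ± 0.244 to 2.21 ± 0.593 CPM. RRAS fell by 0.24, PEBP1, an inhibitor of the cascade, by 0.18 and MAP2K1, the gene of the kinase MEK1 and also named after its values were seen, by 0.13 on the log2 scale (adjusted p between 0.0109 and 0.0453). RRAS lost its call in 7 of 12 fits with 1 sample left out (DMSO replicate 1, 4 or 5 or PBKi replicate 2, 3, 5 or 6), where its log2 fold change lay between -0.226 and -0.194 and its adjusted p between 0.0522 and 0.0853. NRAS lost its call without DMSO replicate 2 or PBKi replicate 2 or 3 (0.127 to 0.138, adjusted p up to 0.0673), and MAP2K1 lost its call in 11 of the 12 fits, all but that without PBKi replicate 6 (-0.136 to -0.0945, adjusted p up to 0.149). MAPK3, the gene of ERK1, was not called and had a log2 fold change of 0.07 (95% confidence interval -0.08 to 0.22).

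At the head of the pathway, of 22 receptors, adaptors and Ras regulators tested, 1 rose and 7 fell, or 36.4% called. Of all genes tested, 41.7% were called, with 20.1% higher and 21.5% lower. The 7 that fell were FGFR3, FGFR4, FGFR1, IGF1R, EGFR, ERBB3 and ERBB2. Among these 7, only FGFR4 had groups that lay apart, and the groups of the others overlapped. FGFR3 fell by 0.87 on the log2 scale (adjusted p = 0.000442, edgeR), FGFR4 by 0.74 (adjusted p = 4.89e-05), FGFR1 by 0.61 (adjusted p = 0.00313), and IGF1R, EGFR, ERBB3 and ERBB2, named after their values were seen, by 0.60, 0.49, 0.32 and 0.30. The receptor MET, below the level set for naming and also named afterwards, rose from 2.22 ± 0.348 to 5.10 ± 0.819 CPM (SD, n = 6 each; log2 fold change 1.21, adjusted p = 2.04e-06). The receptors FGFR2 (0.21, adjusted p = 0.0809) and INSR (-0.15, adjusted p = 0.240) were not called. The median of the list was -0.04. NF1, the partner of the SPRED proteins, was not called (-0.09, 95% confidence interval -0.33 to 0.16).

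Among 14 direct substrates and nuclear factors of ERK, 3 rose and 5 fell. ETV6, an ETS repressor, rose by 0.33 (adjusted p = 0.00694, edgeR) and ETS2 by 0.26 (adjusted p = 0.0123), and SRF, the partner of the ELK factors at immediate early genes, fell by 0.43 on the log2 scale (adjusted p = 0.000694). RPS6KA5, the gene of the kinase MSK1, fell by 0.28 and ELK4 by 0.23 (adjusted p = 0.00275 and 0.0405). ELK4 lost its call in 7 of 12 fits with 1 sample left out: DMSO replicate 2, 4 or 6 or PBKi replicate 1, 2, 3 or 4. Without DMSO replicate 6, its highest sample (273.2 CPM), the log2 fold change was -0.14 (adjusted p = 0.123). Of 13 tested genes of the parallel p38 and JNK branches, 1 rose and 3 fell: MAP2K6, which activates p38, by 0.60 (adjusted p = 6.00e-06), MAPK8 by 0.40 (adjusted p = 3.88e-05) and MAPK9 by 0.26 (adjusted p = 0.000366), the last 2 encoding JNK1 and JNK2. MAP2K4, which activates JNK, rose by 0.14 (adjusted p = 0.0313), and lost its call without DMSO replicate 2 or 4 or PBKi replicate 3 (adjusted p up to 0.0649). These shares of called genes, 57.1% and 30.8%, lie on either side of the 41.7% of all genes tested.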

How the data were processed

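RNAseq libraries (TruSeq, single-end reads) of C4-2 cells were aligned by the authors to GRCh37 with TopHat2 2.0.4, and reads were counted per gene with HTSeq 0.5.3p9, per the study's methods and processing notes. The deposited values are raw counts per Ensembl gene and sequencing lane, in 47 lane tables. Reads outside genes (5.74% to 9.30%) and ambiguous reads (3.87% to 4.35%) were left out, as shares of reads on genes, outside genes or ambiguous. Reads with several positions were also left out (26.7% to 29.3% of all these kinds together).

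Lanes were summed per sample, since the counts of a sample's lanes agreed within counting error (chi-square over its degrees of freedom, 0.993 to 1.02). Groups and replicate numbers came from the sample labels. Nothing says that replicates were separate cultures, so p-values measure the spread between these samples, which may be technical. The 14505 genes that reached 10 counts in 6 or more samples entered edgeR 4.0.16 (TMM, quasi-likelihood test, no covariate), with Benjamini-Hochberg adjustment over all of them at 0.05. CPM values are TMM-scaled. Single genes were also tested by exact two-sided permutation of log2 CPM (prior count 2), whose smallest p is 0.00216. The fit was tested on simulated data. Alternatives used DESeq2 1.42.0, limma 3.58.1, other filters, factors, lanes, thresholds and samples. Symbols and GRCh37 positions came from GENCODE, which may differ from the authors' older annotation, and 47098 of 54127 identifiers matched. Fibroblast, basal, endothelial and immune markers and the pathway lists were written by role. The 10 genes and all lists were chosen with earlier results of these data known. All 10 were named. From each other list, up to 3 called genes in each direction with the largest change and a mean log2 CPM of at least 2 were named, and the 3 genes most like DUSP6. DUSP14 and PECAM1 could not be matched. Windows for DUSP4, DUSP5, ETV4 and ETV5 were not used here. Some genes of the cascade list are counted in its totals but not reported here.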

Additional observations from a re-analysis of the deposited data

Results flagged for a closer look

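Of 82 groups of 6 values examined (the 10 genes, the named genes and PBK in DMSO or PBKi), 6 (7.32%) held a sample whose gap to the nearest other was, as a share of the group's range, above Dixon's 95% critical value, where chance gives about 5%. None was of the 10 ERK feedback and output genes. In DMSO replicate 5, the sample with the fewest reads, DUSP9 was 36.14 CPM (nearest other 27.64), JUNB 38.95 CPM (26.82), EPHA2 15.04 CPM (12.51) and FGFR4 13.85 CPM (10.17), each the highest of its group. ETV6 was 12.22 CPM in PBKi replicate 5 (nearest other 10.47), and ELK4 was 273.2 CPM in DMSO replicate 6 (217.6). The part of depth in these values was not tested.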

How the results depend on the processing

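The fold changes of the 8 tested genes kept their direction under every alternative that tested them, and the calls of DUSP4, ETV5 and PHLDA1 held in each; DUSP5 and SPRED2 lost theirs in replicates 4 to 6 alone, and SPRED2 also at the thresholds of 0.01 on the adjusted p and 0.5 on the log2 scale, each of which left 2 of the 10 genes lower. Alternatives were counted over 39 genes: the 8 tested, those named by rank from the other lists, and PBK. Of their 884 values, 814 kept their side of the threshold and 70 lost it, with 0 reversed. Among these genes, RRAS and ELK4 lost their calls in 11 alternatives each. DUSP16, NRAS and MAP2K4 lost theirs in 6, some of them with 1 sample left out. Genes named after their values were seen are not in these counts. Of those, MAP2K1 lost its call in 11 fits with 1 sample left out. In replicates 4 to 6 alone, 1303 genes rose and 1216 fell, 1 of the 10 genes rose, and the genes called numbered 1 among other phosphatases, 1 among feedback and ETS relatives, 5 among other output genes, 1 among cascade genes and 1 among substrates; in replicates 1 to 3 alone, 11 cascade genes and 13 receptors and regulators were called. Without PBKi replicates 3 and 6, an alternative chosen after seeing the data, 2004 genes fell, and 2 phosphatases, 1 cascade gene and 4 substrates were called. At an adjusted p under 0.01, 2073 genes fell, with 2 phosphatases, 1 cascade gene and 3 substrates called. When a change of 0.5 or more on the log2 scale was required too, 1278 genes rose and 626 fell, with 2 phosphatases, 1 feedback relative, 5 output genes, 1 cascade gene, 5 receptors, 1 substrate and 1 p38 or JNK gene called. With no low-count filter, 3 cascade genes and 5 substrates were called, and with lanes 6 to 8 only, 5 substrates. Of the 10 genes, 3 were called higher with no low-count filter, and 3 by the DESeq2 Wald test. With at least 50 counts required, ETV5 and DUSP5 were not tested, which left 0 of the 10 genes higher in the edgeR fit, also at an unadjusted p under 0.05. The cause of the other differences was not tested.

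With 1 sample left out, the number that rose ranged from 2531 to 3341 and the number that fell from 2586 to 3213, while 2 of the 10 genes rose and 3 fell each time. The genes called ranged from 3 to 5 for phosphatases, 2 to 3 for feedback relatives, 7 to 9 for output genes, 8 to 10 for receptors and 3 to 5 for p38 and JNK genes. They ranged from 4 to 8 for cascade genes (4 without PBKi replicate 2 or 3) and from 5 to 7 for substrates (5 without DMSO replicate 4, PBKi replicate 2 or PBKi replicate 3). With the replicate number as a block, 3485 genes rose and 3803 fell, and 2 of the 10 genes rose and 3 fell. Deviations of samples with the same number correlated at 0.0887 to 0.299. The main fit took no pairs, because the study states no covariate, and the block was kept as an alternative. However, 8 of 12 samples correlated best with their own number, a hint of pairing from the data that the labels do not state. DUSP6, SPRY4 and ETV4 are limited by reads. The intervals of DUSP6 and ETV4 include no change, and that of SPRY4 (ratio 2.41 to 9.87, counting error only) does not.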
